A study of Rattus norvegicus with 9 samples.

Results

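The collagen chain genes encode the alpha chains that wind together, in sets of equal or different chains, into the collagens of the extracellular matrix. Members were all genes of the count table whose rat symbol is that of a collagen alpha chain (Col, a type number, a, a chain number) and whose mean over the libraries was at least 1 CPM, the count scaled to the library total. The rule took 27 of 17465 genes and used no comparison between groups. The table held 28 such symbols. The one outside the threshold was Col6a4, at a mean of 0.687 CPM, and the lowest members were Col17a1 at 1.27, Col8a1 at 1.62 and Col26a1 at 3.61 CPM. All 27 members passed the filter on low counts and were tested. Of 45 collagen symbols listed by class, 17 were not analysed here, among them Col4a2, Col6a1, Col6a3, Col10a1 and Col12a1.

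Total RNA depleted of ribosomal RNA was sequenced from 9 fetal lungs of Sprague-Dawley rats. The lungs made up 3 groups of 3 libraries: control lungs with no treatment, hypoplastic lungs with no treatment, and hypoplastic lungs treated with AFSC-EVs, which are vesicles that amniotic fluid stem cells release. The hypoplasia came from oligohydramnios, a lack of amniotic fluid, and no allele or transgene is named for any group. Whole frozen lungs were powdered for RNA, so each library mixes all cell types of the organ. The sources used here do not give fetal age, litter, vesicle dose or route, and the labels do not tie the lungs to mothers, so p-values measure the spread between these 9 samples only.

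As background, types I, III and V are the fibrillar collagens of connective tissue and types II and XI those of cartilage, where type IX coats the fibril. Type IV forms the sheet of every basement membrane. Its common network holds the chain of Col4a1, while the network of mature alveolar and kidney filter membranes holds those of Col4a3 and Col4a4. In the growing lung, fibroblasts lay down fibrillar collagen around airways and vessels, epithelium and endothelium share a basement membrane, and cartilage rings support the large airways.

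Library totals ran from 56922779 to 88243188 estimated counts, and collagen chains took 0.472% to 2.01% of them. All CPM values other than the membership means use the TMM-scaled library size. The lung label held in every library: the epithelial transcription factor Nkx2-1 lay between 264 and 442 CPM and the surfactant gene Sftpc between 292 and 951 CPM. Levels are not divided by transcript length, so they compare libraries for 1 gene and not genes with each other. A lower level in whole lung can come from fewer cells of a type or from less RNA per cell, which cannot be told apart.

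Libraries that stood apart touched most results below. Hypoplastic library 1 held a summed 58.3 CPM of 9 cartilage markers, none at 0, against 5.80 to 13.4 CPM in the other libraries, each with 2 to 4 of the 9 at 0. It also held 235 CPM of 6 heart muscle markers, against 106 CPM in hypoplastic library 2 and 24.8 to 51.1 CPM elsewhere. Hypoplastic library 2 held 77.8 CPM of 2 mesothelial markers, Msln and Wt1, against 12.8 to 31.4 CPM elsewhere. Control library 2 had the highest sum of 6 lung epithelial markers, 4436 CPM against 2351 and 3191 CPM in the other controls, and the lowest sum of 5 lung fibroblast markers, 126 CPM against 219 to 476 CPM in the other 8 libraries. Epithelial sums in the hypoplastic libraries were 1757 to 2068 CPM and in the treated libraries 2240 to 2812 CPM. Sums of 6 neutrophil markers were 6.61 to 12.9 CPM in the controls, 53.8 to 95.3 in the hypoplastic and 18.8 to 79.6 in the treated libraries. Endothelial sums (4 markers) overlapped between all groups, at 598 to 808 CPM. Skeletal muscle sums (6 markers) were 9.13 to 16.97 CPM, and bone sums (5 markers) 15.1 to 59.0 CPM. The part of these cell types in the results was not tested. Values given without a library show the weight of that library, not of a cell type.

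Collagen chain genes were, in most cases, higher in the hypoplastic than in the control lungs and lower in the treated than in the hypoplastic lungs, but in edgeR's quasi-likelihood test with Benjamini-Hochberg adjustment no member was called in any comparison. Over all 12966 genes tested that test called 1 gene (0.00771%) in hypoplastic against control lungs and none in the other 2 comparisons (721 and 541 had an unadjusted p under 0.05), and without hypoplastic library 3 it called 45 genes, 44 in treated against hypoplastic lungs and none in treated against control lungs. The lowest adjusted p of a member was 0.316 for hypoplastic against control lungs, 0.826 for treated against hypoplastic lungs and 0.998 for treated against control lungs. The comparisons share libraries, so their values stand side by side and are not independent.

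In hypoplastic against control lungs 22 of the 27 members had a log2 fold change above 0 (51.9% of all genes tested) and 5 below, with a median of 0.57 against 0.01 over all genes. Without 1 library the median was 0.31 (hypoplastic library 1), 0.24 (hypoplastic library 2), 0.35 (control library 2) or 0.90 (control library 3). With an unadjusted p below 0.05 in edgeR, 7 members were higher (6.67% of all genes) and 2 were lower (5.69%). The higher ones were Col2a1, Col5a3, Col9a1, Col9a3, Col11a1, Col11a2 and Col17a1, and the lower ones Col4a3 and Col4a4. Of these, Col5a3 and Col17a1 reached the membership threshold of 1 CPM only through the hypoplastic lungs. Their means were 0.565 and 0.664 CPM in the controls, 30.6 and 2.535 in the hypoplastic and 0.673 and 0.620 in the treated lungs. Their place in the counts here and in the next comparison therefore depends on the group compared. Control and hypoplastic libraries did not overlap for 2 higher members (7.67% of all genes), Col11a1 and Col26a1, and for 2 lower ones (9.05%), Col4a3 and Col4a4. DESeq2, run as an alternative, called 1 member higher (0.905% of all genes), Col5a3, and 2 lower (0.658%), Col4a3 and Col4a4. DESeq2 returned no p-value for Col11a1 in any comparison, so that gene was not tested there. With hypoplastic libraries 1 and 2 both left out, a setting chosen after the data were seen, hypoplastic library 3 was alone in its group. Against the controls Col11a1 was higher in that fit and Col4a3 and Col4a4 were lower. A single library gives no spread within its group, so no p-value or count of that fit is given.

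In treated against hypoplastic lungs 6 members lay above 0 (48.1% of all genes) and 21 below, with a median of -0.55 against -0.01 over all genes. Without hypoplastic library 1 or 2 the median was -0.17 and -0.34. With an unadjusted p below 0.05 in edgeR, 1 member was higher (2.0% of all genes), Col27a1, and 5 were lower (3.56%): Col5a3, Col11a1, Col14a1, Col17a1 and Col26a1. Groups did not overlap for 3 lower members (4.74%), Col11a1, Col14a1 and Col26a1, and 1 higher (5.09%), Col4a4. DESeq2 called Col5a3 lower (0.132% of all genes were called lower). Without hypoplastic libraries 1 and 2, with hypoplastic library 3 alone in its group, the log2 fold change of Col11a1 was -1.02.

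In treated against control lungs 18 members lay above 0 (50.6% of all genes) and 9 below, and the median was 0.05 against 0.00 over all genes. With an unadjusted p below 0.05 in edgeR, no member was higher (1.67% of all genes) and 2 were lower (2.50%), Col4a3 and Col4a4. They were also the 2 members whose groups did not overlap, both lower in the treated lungs (5.01% of all genes), with none higher (4.37%). DESeq2 called no member, with 0.0851% of all genes called higher and 0.0232% lower.

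**Figure D1:**
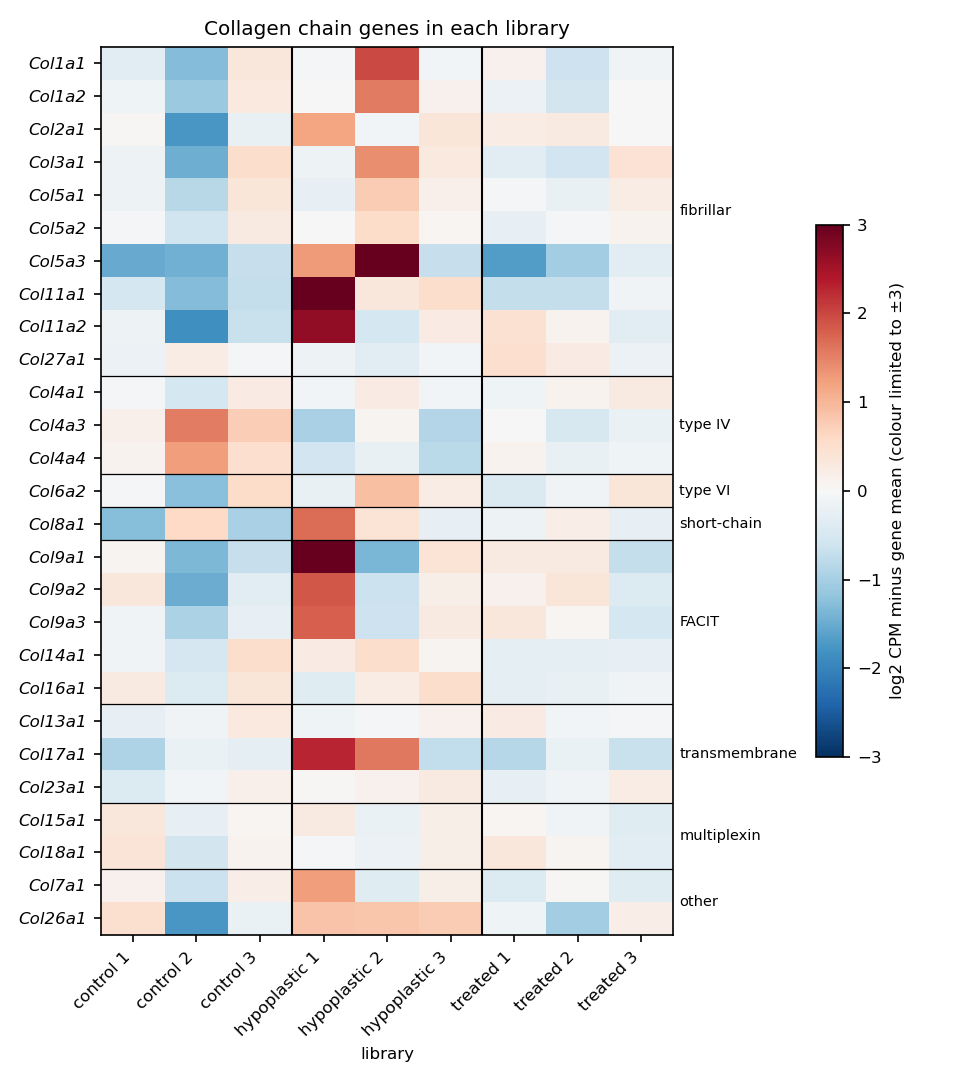
Rows are the 27 collagen chain genes, by class, and columns the 9 libraries, by group. Colour gives log2 of CPM minus the gene's mean over the 9 libraries, limited to ±3. Types II, IX and XI are high in hypoplastic library 1, types I and III and Col5a3 in hypoplastic library 2, and Col4a3 and Col4a4 in the 3 controls.

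**Figure D2:**
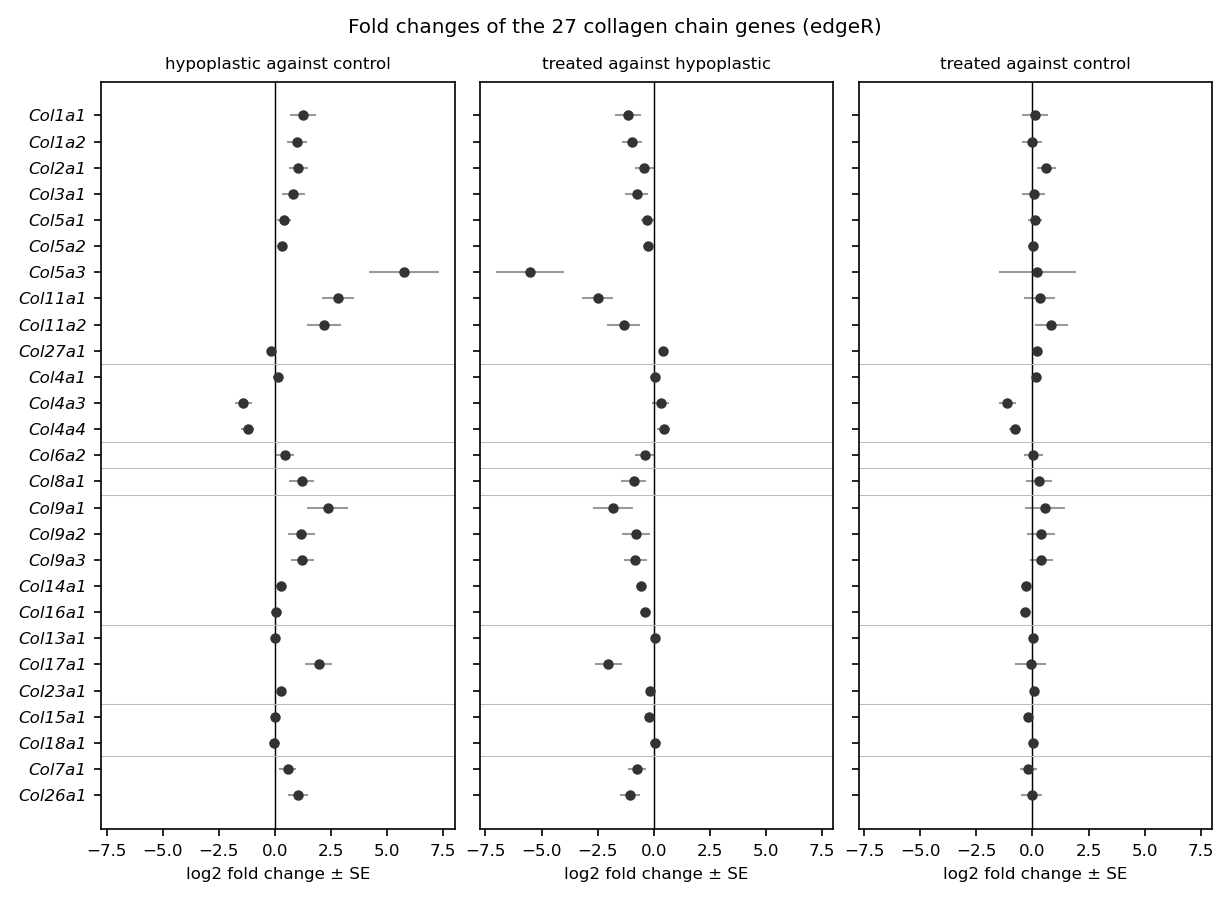
Log2 fold change of each collagen chain gene in edgeR for the 3 comparisons, with bars of 1 standard error. In hypoplastic against control lungs 22 of 27 points lie above 0, in treated against hypoplastic lungs 21 lie below, and in treated against control lungs 18 lie above.

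Col1a1 and Col1a2 encode the chains of type I collagen, the main fibril former of connective tissue. Col1a1 (NCBI Gene ID 29393) stood at 1182, 599 and 1862 CPM in the controls, 1416, 5816 and 1396 in the hypoplastic lungs, and 1616, 954 and 1359 in the treated lungs. Hypoplastic library 2 was far above the rest, and the other hypoplastic libraries lay within the range of the controls. The log2 fold change of Col1a1 was 1.24 ± 0.58 (SE) in hypoplastic against control lungs (edgeR, unadjusted p = 0.0601) and -1.13 ± 0.58 in treated against hypoplastic lungs (unadjusted p = 0.0811). Without hypoplastic library 2 these values were 0.21 and -0.10.

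Col1a2 was read at 996, 506 and 1336 CPM in the controls, 1095, 3230 and 1204 in the hypoplastic and 964, 742 and 1111 in the treated lungs. As for Col1a1, library 2 was the highest of the hypoplastic and the lowest of the control libraries. Its log2 fold change was 0.96 ± 0.45 in hypoplastic against control lungs (edgeR, unadjusted p = 0.0596), and 0.28 without hypoplastic library 2.

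Col3a1, whose homotrimer is the type III collagen of vessel walls and young connective tissue, lay at 1790, 724 and 2895 CPM in the controls. It was at 1803, 5268 and 2455 CPM in the hypoplastic and at 1578, 1337 and 2687 CPM in the treated lungs. All 3 groups overlapped, and the hypoplastic against control log2 fold change was 0.82 ± 0.53 (edgeR, unadjusted p = 0.154), or 0.24 without hypoplastic library 2. In treated against hypoplastic lungs it was -0.77. Summed over the 10 fibrillar members, the controls held 5175, 2541 and 7456 CPM, the hypoplastic lungs 6151, 16010 and 6479 CPM, and the treated lungs 5463, 4342 and 6476 CPM. Without Col1a1, Col1a2 and Col3a1, all members together summed to 4656, 2967 and 5397 CPM in the controls, 5237, 5681 and 4852 in the hypoplastic and 4506, 4692 and 4896 in the treated lungs. Away from those 3 genes hypoplastic library 2 no longer stood out, while control library 2 remained the lowest.

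Type V collagen is a minor fibrillar collagen that sits inside type I fibrils and limits their width. Its common chains differed little: Col5a1 had log2 fold changes of 0.41 and -0.28, and Col5a2 0.30 and -0.27, in hypoplastic against control and treated against hypoplastic lungs. Without hypoplastic library 2 the values of Col5a1 were 0.10 and 0.03. Col5a1 spanned 169 to 383 CPM in the controls, 253 to 504 in the hypoplastic and 255 to 348 in the treated lungs. Col5a2 spanned 279 to 511, 417 to 615 and 355 to 454 CPM. The third chain gene, Col5a3 (ID 60379), was different. Its level was 0.444, 0.464 and 0.786 CPM in the controls, 3.08, 88.03 and 0.778 CPM in the hypoplastic lungs, and 0.395, 0.610 and 1.01 CPM in the treated lungs. Hypoplastic library 2 held nearly all of it, hypoplastic library 1 was above the controls, and hypoplastic library 3 lay within the controls. Col5a3 had the largest log2 fold change of all members, 5.74 ± 1.55 in hypoplastic against control lungs (edgeR, unadjusted p = 0.00442) and -5.52 ± 1.51 in treated against hypoplastic lungs (unadjusted p = 0.00474). DESeq2 called both (adjusted p = 0.00701 and 0.0494). Without hypoplastic library 2 the first was 1.77, and without libraries 1 and 2, with hypoplastic library 3 alone, it was 0.44. In the same hypoplastic library 2 the fibril-binding proteoglycan genes Dcn (decorin) and Lum (lumican) reached 147 and 75.0 CPM, against 1.84 to 13.3 and 0.109 to 6.28 CPM in the other 8 libraries, and the 2 mesothelial markers were highest there too.

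**Figure D3:**
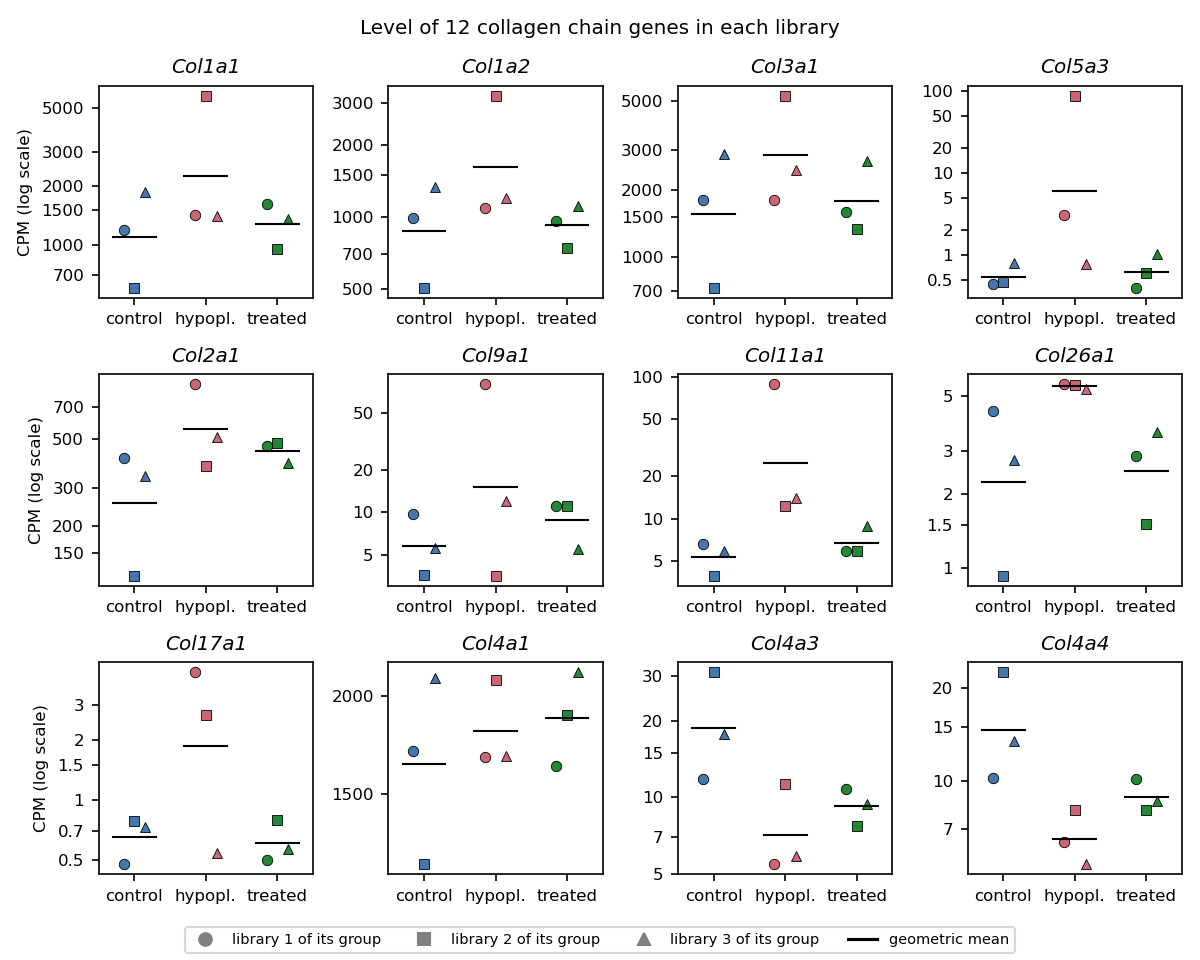
CPM (log axis) of 12 collagen chain genes in each library, grouped as control, hypoplastic and treated. Symbols give the library number, which is not stated to link libraries across groups, and lines mark the geometric mean of each group. The hypoplastic maximum of Col1a1, Col1a2, Col3a1 and Col5a3 is library 2 (squares) and that of Col2a1, Col9a1 and Col11a1 library 1 (circles), while Col26a1 lies between 5.33 and 5.61 CPM in all 3 hypoplastic libraries.

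Col2a1 (ID 25412) encodes the chain of type II collagen, the main collagen of cartilage. It stood at 410, 118 and 339 CPM in the controls, 894, 375 and 510 in the hypoplastic lungs, and 463, 482 and 391 in the treated lungs. Hypoplastic library 1 was the highest and control library 2 the lowest. The hypoplastic against control log2 fold change was 1.04 ± 0.43 (edgeR, unadjusted p = 0.0365), 0.61 without hypoplastic library 1 and 0.66 without control library 2. In treated against hypoplastic lungs it was -0.41, and 0.01 without hypoplastic library 1.

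Type XI collagen joins type II in the core of cartilage fibrils, and Col11a1 and Col11a2 encode chains of it. Col11a1 (ID 25654) lay at 6.63, 3.92 and 5.87 CPM in the controls, 89.1, 12.2 and 14.0 CPM in the hypoplastic lungs, and 5.87, 5.87 and 8.90 CPM in the treated lungs. All 3 hypoplastic libraries were above all control and all treated libraries. Its log2 fold change was 2.81 ± 0.70 in hypoplastic against control lungs (edgeR, unadjusted p = 0.0028, adjusted p = 0.316) and -2.49 ± 0.69 in treated against hypoplastic lungs (unadjusted p = 0.00524, adjusted p = 0.826). Without hypoplastic library 1 the values were 1.26 and -0.93, and without libraries 1 and 2, with hypoplastic library 3 alone, 1.35 and -1.02. In treated against control lungs it was 0.32. For Col11a2 the controls read 10.4, 3.22 and 7.26 CPM, the hypoplastic lungs 72.8, 7.95 and 13.7 and the treated lungs 15.7, 12.4 and 9.19. Groups overlapped for Col11a2, and its hypoplastic against control log2 fold change of 2.18 ± 0.75 (edgeR, unadjusted p = 0.0164) was 0.64 without hypoplastic library 1.

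The genes of type IX collagen, which decorates the surface of type II fibrils, had the same high library. Col9a1 was at 9.67, 3.61 and 5.66 CPM in the controls, 80.2, 3.56 and 12.1 CPM in the hypoplastic and 11.05, 11.01 and 5.56 CPM in the treated lungs. Hypoplastic library 1 was far above every other library, and hypoplastic library 2 was the lowest of all 9. Col9a2 was at 68.9 CPM in hypoplastic library 1, against 6.77 to 24.3 CPM in the other 8. Col9a3 was at 17.9, 10.01 and 16.2 CPM in the controls, 66.8, 12.6 and 23.4 in the hypoplastic and 24.3, 20.2 and 13.4 in the treated lungs. Hypoplastic against control log2 fold changes of Col9a1, Col9a2 and Col9a3 were 2.34 ± 0.92, 1.17 and 1.22 ± 0.52, and 0.30, 0.14 and 0.29 without hypoplastic library 1. In treated against hypoplastic lungs Col9a1, Col9a2, Col9a3 and Col11a2 were at -1.80, -0.79, -0.83 and -1.34, and without that library at 0.24, 0.24, 0.11 and 0.20. The cartilage markers Hapln1, Matn1 and Comp were at 19.7, 9.20 and 9.45 CPM in hypoplastic library 1 and at most 2.12, 0.0949 and 0.359 CPM in the other 8 libraries. The other listed markers were less uniform. Ucma, Chad, Cnmd and Matn3 were at 2.81, 0.320, 14.1 and 2.30 CPM there, against at most 0.604, 0.0587, 10.3 and 1.47 CPM. Snorc was nearly level with control library 1 (0.2135 and 0.2109 CPM). Epyc was at 0.229 CPM, below the 0.539 CPM of hypoplastic library 2. Relative to Col2a1, Col9a1 counts were 0.0897 in hypoplastic library 1 and 0.0095 to 0.0306 in the others, and Col11a1 counts were 0.0996 against 0.0122 to 0.0332.

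**Figure D4:**
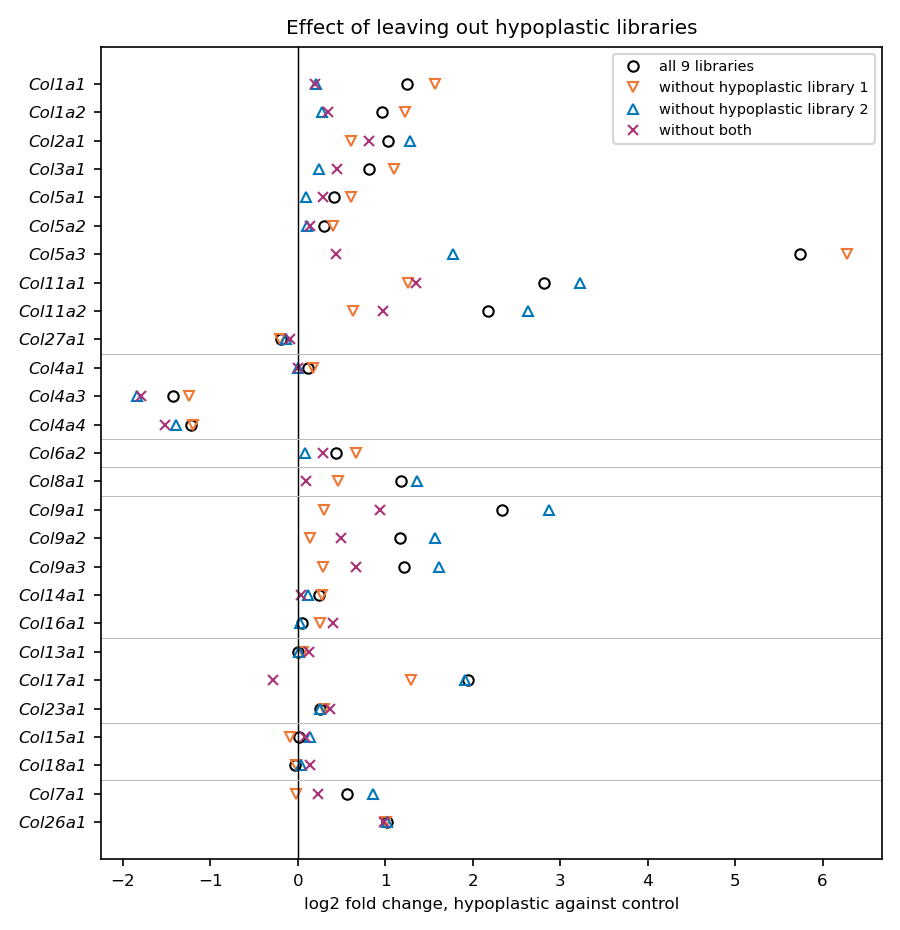
Log2 fold change of collagen chain genes in hypoplastic against control lungs with all libraries and with hypoplastic library 1, hypoplastic library 2 or both left out. Type IX and XI genes move toward 0 without library 1, and types I and III and Col5a3 without library 2. Col4a3, Col4a4 and Col26a1 stay on their side of 0 in each setting, as do Col5a3 and Col11a1. With 1 library left out, the other type I, III, IX and XI genes also stay above 0.

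Col27a1 encodes a fibrillar collagen of developing cartilage and other tissues and was the one fibrillar member with a negative hypoplastic against control log2 fold change, -0.19. Its controls were at 106, 140 and 117 CPM, its hypoplastic lungs at 107, 97.0 and 113 and its treated lungs at 170, 142 and 106. It was higher in treated than in hypoplastic lungs by a log2 fold change of 0.40 ± 0.17 (edgeR, unadjusted p = 0.0424), with treated library 3 inside the hypoplastic range. Without treated library 1 this was 0.23.

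Type IV collagen gave the lower members. In the rat genome the start sites of Col4a3 and Col4a4 lie head to head, 412 bases apart in RefSeq's GRCr8 annotation, on opposite strands of chromosome 9. The 250 bases before each start are shown because the pair had parallel levels: capitals mark the 88 bases, chr9:91323740-91323827, that both windows share and that each line reads on its own strand. The Col4a3 line covers chr9:91323740-91323989 on the plus strand and the Col4a4 line chr9:91323578-91323827 on the minus strand, both 5′ to 3′.
Col4a3: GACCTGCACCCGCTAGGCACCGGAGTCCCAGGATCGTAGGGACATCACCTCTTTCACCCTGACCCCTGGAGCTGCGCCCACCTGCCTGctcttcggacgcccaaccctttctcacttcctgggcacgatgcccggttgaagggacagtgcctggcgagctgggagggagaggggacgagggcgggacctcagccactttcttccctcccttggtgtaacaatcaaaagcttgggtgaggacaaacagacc
Col4a4: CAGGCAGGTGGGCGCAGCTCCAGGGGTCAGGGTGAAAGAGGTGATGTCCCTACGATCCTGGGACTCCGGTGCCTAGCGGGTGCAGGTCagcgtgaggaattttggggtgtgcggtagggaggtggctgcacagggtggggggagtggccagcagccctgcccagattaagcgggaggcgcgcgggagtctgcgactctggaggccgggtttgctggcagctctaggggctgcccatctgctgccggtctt
GC content of the windows was 62.0% and 66.4%. GGGCGG, read on both strands, was in the Col4a3 window and not in the Col4a4 window, and neither CCAAT nor TATAAA was in either. Of the 27 members 21 had a promoter entry: GGGCGG was in 12 of these, CCAAT in 5 (Col1a2, Col4a1, Col5a3, Col11a1 and Col17a1) and TATAAA in 3 (Col1a2, Col13a1 and Col17a1). The shares among all 33469 promoters of that length were 30.47%, 34.02% and 12.93%.

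Col4a3 (NCBI Gene ID 363265) stood at 11.8, 31.2 and 17.8 CPM in the controls, 5.44, 11.3 and 5.86 CPM in the hypoplastic lungs, and 10.8, 7.74 and 9.40 CPM in the treated lungs. Every control library was above every hypoplastic and every treated library, though control library 1 and hypoplastic library 2 were close. The mean was 20.3 ± 9.90 CPM in the controls, 7.53 ± 3.26 in the hypoplastic and 9.32 ± 1.54 in the treated lungs (SD, n = 3 each). The log2 fold change of Col4a3 was -1.43 ± 0.38 in hypoplastic against control lungs (edgeR, unadjusted p = 0.00388, adjusted p = 0.316). It was 0.31 ± 0.37 in treated against hypoplastic lungs (edgeR, unadjusted p = 0.433; 0.12 when hypoplastic library 1 was left out and 0.72 when hypoplastic library 2 was) and -1.12 ± 0.37 in treated against control lungs (unadjusted p = 0.0137).

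Col4a4 (ID 301562) followed the same order: 10.2, 22.6 and 13.5 CPM in the controls, 6.36, 8.08 and 5.39 CPM in the hypoplastic lungs, and 10.1, 8.10 and 8.66 CPM in the treated lungs. The hypoplastic group was the lowest and the control group the highest, with no overlap between any of the groups, although the lowest control and the highest treated library, and the lowest treated and the highest hypoplastic library, were nearly equal. Means were 15.4 ± 6.402, 6.61 ± 1.36 and 8.97 ± 1.06 CPM (SD, n = 3 each). Log2 fold changes were -1.22 ± 0.28 in hypoplastic against control lungs (edgeR, unadjusted p = 0.00164, adjusted p = 0.316), 0.44 ± 0.28 in treated against hypoplastic lungs (unadjusted p = 0.15) and -0.78 ± 0.28 in treated against control lungs (unadjusted p = 0.0188). In hypoplastic against control lungs DESeq2 called both genes (adjusted p = 0.0185 for Col4a3 and 0.00704 for Col4a4). Unadjusted p-values in that comparison stayed under 0.05 in every setting tried, at 0.0174 or less for Col4a3 and 0.00855 or less for Col4a4. These settings include the fit with hypoplastic library 3 alone, which has no spread within its group. Without control library 2, the highest, the fold changes were -0.98 and -0.85, and in treated against control lungs neither gene kept an unadjusted p under 0.05 (edgeR, 0.0722 and 0.0922). The alveolar type I cell markers Ager and Hopx were highest in that library too, at 104 and 164 CPM, against 42.2 and 64.7 CPM in control library 1 and 62.0 and 100 CPM in control library 3. In the hypoplastic lungs Ager was at 23.1, 48.7 and 32.9 CPM and Hopx at 37.2, 80.6 and 59.3 CPM, both again highest in the library with the highest Col4a3 of its group. In the treated lungs Ager was at 42.2, 34.3 and 71.8 CPM, highest in library 3, while Col4a3 was highest in library 1.

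Col4a1, the chain of the common basement membrane network, differed far less: 1701, 1219 and 2108 CPM in the controls, 1670, 2094 and 1677 in the hypoplastic, and 1626, 1889 and 2145 in the treated lungs. All groups overlapped. Its log2 fold changes were 0.11 ± 0.21 for hypoplastic and 0.17 for treated lungs against controls, and 0.06 for treated against hypoplastic lungs, so the lower level of Col4a3 and Col4a4 against controls was not seen for Col4a1, a contrast that was not tested as such. All 3 genes had the same sign in treated against hypoplastic lungs.

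Col6a2 encodes a chain of the beaded type VI filament that links cells to fibrils. It was read at 332, 144 and 506 CPM in the controls, 295, 636 and 402 in the hypoplastic and 255, 320 and 439 in the treated lungs. Control library 2 was again the lowest and hypoplastic library 2 the highest, and the log2 fold changes of 0.44 and -0.39 in hypoplastic against control and treated against hypoplastic lungs came with overlapping groups. The first was 0.08 without control library 2 and 0.90 without control library 3, and the second -0.04 without hypoplastic library 2. Col8a1, a short-chain collagen of vessel walls, had a low level, at 0.567 to 2.07 CPM in the controls, 1.16 to 4.36 in the hypoplastic and 1.16 to 1.58 in the treated lungs, with log2 fold changes of 1.19 in hypoplastic against control and -0.89 in treated against hypoplastic lungs. These were 0.46 and -0.17 without hypoplastic library 1, and the first was 1.95 without control library 2.

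Col14a1 and Col16a1 encode fibril-associated collagens outside cartilage. Col14a1 stood at 286, 217 and 443 CPM in the controls, 360, 439 and 323 in the hypoplastic lungs, and 252, 255 and 259 in the treated lungs. The treated libraries lay close together and below all hypoplastic libraries, but inside the control range. Its log2 fold change was -0.55 ± 0.23 in treated against hypoplastic lungs (edgeR, unadjusted p = 0.0362, adjusted p = 0.896), 0.25 in hypoplastic against control and -0.31 in treated against control lungs. Col16a1 was at 74.8, 46.9 and 80.2 CPM in the controls, 48.2, 72.0 and 89.3 in the hypoplastic and 51.6, 53.1 and 57.3 in the treated lungs, with log2 fold changes of 0.05 and -0.37 in hypoplastic against control and treated against hypoplastic lungs.

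Among the transmembrane collagens, Col17a1 (ID 294027), the hemidesmosome collagen that anchors basal epithelial cells, was at 0.475, 0.785 and 0.732 CPM in the controls, 4.38, 2.68 and 0.543 CPM in the hypoplastic lungs, and 0.5003, 0.789 and 0.570 CPM in the treated lungs. Hypoplastic libraries 1 and 2 were above all others and library 3 was among the controls. The log2 fold change was 1.95 ± 0.61 in hypoplastic against control lungs (edgeR, unadjusted p = 0.0098) and -2.03 ± 0.60 in treated against hypoplastic lungs (unadjusted p = 0.00721). Without hypoplastic library 3 edgeR called Col17a1 in both comparisons (adjusted p = 0.0366 and 0.0241), and without libraries 1 and 2 the values were -0.29 and 0.20. Col13a1 (22.2 to 32.2 CPM over the 9 libraries) and Col23a1 (9.27 to 14.9 CPM) overlapped in every comparison, with log2 fold changes between -0.18 and 0.25. The multiplexins Col15a1 and Col18a1, basement membrane proteoglycans of vessels and epithelia, had hypoplastic against control log2 fold changes of 0.01 and -0.03 and treated against hypoplastic values of -0.22 and 0.07. Col15a1 spanned 83.6 to 137 CPM over the 9 libraries. Col18a1 was at 796, 415 and 653 CPM in the controls, 593, 543 and 684 in the hypoplastic and 776, 642 and 489 in the treated lungs. The sign of its value depended on the setting.

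Col7a1, which forms the anchoring fibrils below the epithelium, was highest in hypoplastic library 1 at 26.1 CPM, against 7.04 to 12.6 CPM in the other 8 libraries, with log2 fold changes of 0.57 and -0.75 in hypoplastic against control and treated against hypoplastic lungs, and -0.02 and -0.16 without that library. Col26a1 (ID 685612), a small collagen first found in testis and ovary, behaved otherwise. Its level was 4.36, 0.928 and 2.74 CPM in the controls, 5.61, 5.54 and 5.33 CPM in the hypoplastic lungs, and 2.86, 1.51 and 3.57 CPM in the treated lungs. The 3 hypoplastic libraries were close together (5.49 ± 0.143 CPM, SD, n = 3) and above every control and every treated library. The log2 fold change was 1.03 ± 0.46 in hypoplastic against control lungs (edgeR, unadjusted p = 0.0501) and -1.06 ± 0.46 in treated against hypoplastic lungs (unadjusted p = 0.0429, adjusted p = 0.896). With hypoplastic library 1, library 2 or both left out, the first value was 1.01, 1.02 and 0.98. It moved further with the controls, to 1.56 without control library 1 and 0.63 without control library 2.

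Chains of 1 collagen (3 pairs) and of types I and III and types II and IX (1 pair each) were set against each other across the 9 libraries, with exact permutation tests and Benjamini-Hochberg adjustment over the 5 pairs. Across libraries that share depth and cell makeup these are descriptions of the libraries, not of the groups. For Col1a1 and Col1a2, Pearson's r of log2 CPM was 0.98 (exact permutation p = 0.000262, adjusted 0.000655) and Spearman's rho 0.783 (exact permutation p = 0.0172, adjusted 0.0214). Without control library 2 and hypoplastic library 2, the farthest from the median, r was 0.813. The Col4a3 and Col4a4 pair had r = 0.973 (exact permutation p = 0.000124, adjusted 0.00062) and rho = 0.883 (exact permutation p = 0.00308, adjusted 0.00769), with r = 0.936 without control library 2 and hypoplastic library 1. For Col1a1 and Col3a1 r was 0.908 (exact permutation p = 0.00225, adjusted 0.00281), rho 0.767 (exact permutation p = 0.0214, adjusted 0.0214) and 0.627 without the 2 farthest libraries. For Col5a1 and Col5a2 r was 0.936 (exact permutation p = 0.00102, adjusted 0.0017), rho 0.833 (exact permutation p = 0.00827, adjusted 0.0138) and 0.686 without them. Col2a1 and Col9a1 had r = 0.777 (exact permutation p = 0.046, adjusted 0.046) and rho = 0.9 (exact permutation p = 0.00203, adjusted 0.00769), with r = 0.84 without control library 2 and hypoplastic library 1. After subtraction of the group means r was 0.978, 0.942, 0.875, 0.932 and 0.742 for the 5 pairs in this order. The parallel levels therefore did not rest on the group means alone. Each of these values pools the deviations of all 9 libraries and does not show the parallel inside each group. The ratio of Col1a1 to Col1a2 counts was 1.16 to 1.80 in all 9 libraries and that of Col4a3 to Col4a4 0.855 to 1.40.

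**Figure D5:**
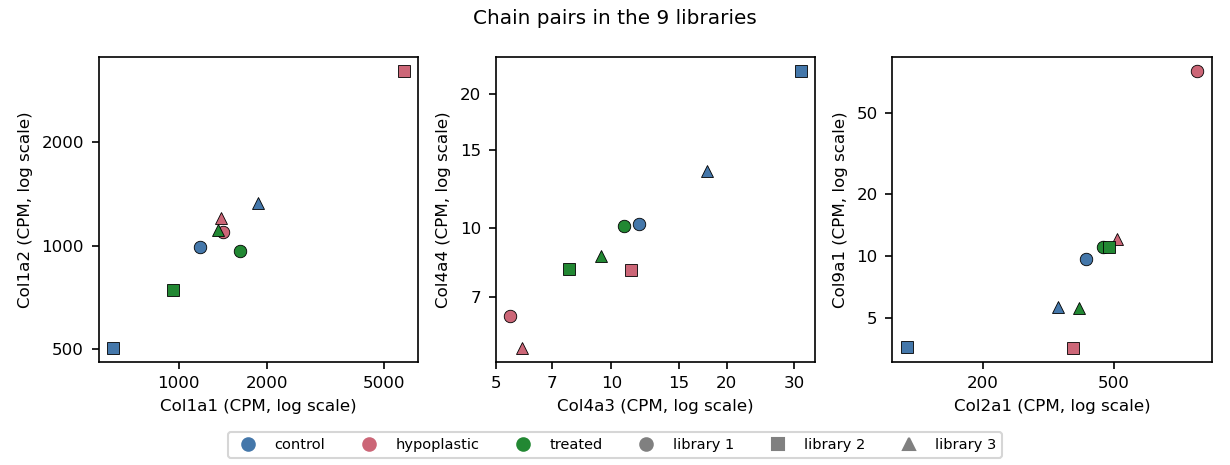
CPM of 3 pairs of collagen chain genes in the 9 libraries, on log axes, coloured by group. Col1a1 and Col1a2 are both highest in hypoplastic library 2, Col4a3 and Col4a4 in control library 2, and Col2a1 and Col9a1 in hypoplastic library 1.

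Genes that make, process, cross-link or bind collagen were taken from 6 lists, of which 51 of 61 genes were tested and edgeR called none. In hypoplastic against control lungs 10 were higher and 1 lower at an unadjusted p under 0.05 (6.67% and 5.69% of all genes). In treated against hypoplastic lungs 0 were higher and 6 lower (2.0% and 3.56%), and in treated against control lungs 1 and 2 (1.67% and 2.50%), a share close to that of all genes. Their medians were 0.21, -0.17 and 0.01 on the log2 scale.

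Of 16 genes for hydroxylation and folding, 4 were higher at that level in hypoplastic lungs (P4ha2, P3h3, P3h4 and Fkbp10, against 6.67% of all genes) and the list's median was 0.31. P4ha2, a subunit of the prolyl 4-hydroxylase that stabilises the helix, was at 27.03, 19.6 and 25.1 CPM in the controls and 36.0, 52.1 and 29.1 CPM in the hypoplastic lungs, without overlap, and at 25.8, 30.2 and 31.3 CPM in the treated lungs. Its log2 fold change was 0.71 ± 0.21 (edgeR, unadjusted p = 0.00755). P3h3, a prolyl 3-hydroxylase, was at 22.4 to 26.8 CPM in the controls and 31.0 to 33.4 CPM in the hypoplastic lungs, a log2 fold change of 0.39 ± 0.11 (unadjusted p = 0.00595). Of 7 processing genes none passed an unadjusted p of 0.05 in hypoplastic against control lungs, and the procollagen N-proteinase Adamts2 was lower in treated against control lungs (-0.31 ± 0.12, edgeR, unadjusted p = 0.0241). The C-proteinase Bmp1 was at -0.22 in hypoplastic against control lungs. Of 5 cross-linking oxidases Loxl3 alone passed that level, at 3.14 to 6.41 CPM in the controls and 7.61 to 9.88 CPM in the hypoplastic lungs (0.76 ± 0.24, edgeR, unadjusted p = 0.0115). Loxl4 was at -1.27 in treated against hypoplastic lungs (edgeR, unadjusted p = 0.0552), with 4.28 CPM in hypoplastic library 1 and 0.711 to 1.33 CPM in the other 8 libraries. Of 7 receptors the cartilage integrin subunit Itga10 was at 1.36 CPM in hypoplastic library 1, the library with the most cartilage marker RNA, and at 0.0407 to 0.235 CPM in the other 8, a log2 fold change of 2.36 (edgeR, unadjusted p = 0.0256). The receptor kinase Ddr2 was at -0.77 in treated against hypoplastic lungs (unadjusted p = 0.0924).

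Fibril-binding proteoglycans had 4 of 7 genes higher in hypoplastic lungs at an unadjusted p under 0.05 (Dcn, Lum, Ogn and Aspn, against 6.67% of all genes) and a median of 1.29, and 5 of 7 lower in treated against hypoplastic lungs (3.56%) with a median of -1.70. DESeq2 called 4 of them higher in the first comparison (0.905% of all genes) and 1 lower in the second (0.132%). Ogn (osteoglycin) was at 21.8, 17.5 and 26.4 CPM in the controls, 53.3, 83.2 and 24.6 CPM in the hypoplastic lungs, and 17.3, 12.2 and 20.3 CPM in the treated lungs. The treated against hypoplastic log2 fold change of Ogn was -1.70 ± 0.38 (edgeR, unadjusted p = 0.00141, adjusted p = 0.826). Lum had a hypoplastic against control value of 5.96 ± 1.60 (edgeR, unadjusted p = 0.00423), although hypoplastic library 3 was at 0.109 CPM, below the controls. Dcn, Ogn and Aspn lay within the control range in that library. Aspn was at 1.8, 0.70 and 1.8 CPM in the controls and 8.6, 9.5 and 1.3 CPM in the hypoplastic lungs. Control and hypoplastic libraries overlapped for all 7 genes. For Dcn, Lum, Ogn and Aspn the levels above the controls were those of hypoplastic libraries 1 and 2. Bgn and Fmod exceeded all controls in hypoplastic library 2 only. Prelp did so in hypoplastic libraries 2 and 3, at 21.6 and 16.8 CPM against at most 16.1 CPM. Of 9 basement membrane partners of type IV collagen, 1 had an unadjusted p below 0.05 in edgeR between hypoplastic and control lungs. It was the epithelial laminin chain gene Lama3, which was lower (5.69% of all genes), and none was higher (6.67%). Lama3 was at 174, 212 and 172 CPM in the controls, 119, 122 and 118 CPM in the hypoplastic lungs, and 143, 170 and 111 CPM in the treated lungs, with a log2 fold change of -0.64 ± 0.15 (edgeR, unadjusted p = 0.00196). The laminin chain gene Lamb2 was at -0.22 ± 0.12 in treated against control lungs (edgeR, unadjusted p = 0.0969). For Lama3, as for Col4a3 and Col4a4, all hypoplastic libraries lay below all controls, which held for 9.05% of all genes.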

How the data were processed

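Per the labels' protocols, RNA of all libraries was extracted on the same day and depleted with the Ribo-Zero Plus kit. The authors deposited estimated counts per NCBI Gene ID, not normalized, of which 19.5% of nonzero values were whole. The sources used here do not say how the fractions arose, nor the aligner or the counter's strand setting. The submitters' processing notes name the build rn7 and DESeq2, with no role. Counts shared between genes that overlap or lie antisense are uncertain. Symbols came from a RefSeq table of assembly GRCr8 (17314 of 17465 IDs, 99.1%). Promoter sequences came from RefSeq's GRCr8 table, matched by NCBI Gene ID for the motif counts and by symbol for the Col4a3 and Col4a4 windows.

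Estimated counts were rounded (the tests had been planned for counts) and tested with edgeR 4.0.16 (glmQLFit, glmQLFTest, TMM, filterByExpr) in R 4.3.3, in 1 fit of all 9 libraries with a term per group and 6 residual degrees of freedom. This left 12966 genes. Within each comparison p-values were adjusted over these (Benjamini-Hochberg), and an adjusted p under 0.05 was a call. The common biological coefficient of variation was 0.253. A standard error is the absolute log2 fold change divided by the square root of F. Pair relations used log2 of CPM plus a pseudocount of 1. Of 8 pairs planned, 3 could not be run because a chain or partner was not analysed here. The script was tested on simulated data. DESeq2 1.42.0 and limma 3.58.1 (voom) were alternatives, as were other normalizations, filters, the 6 libraries compared, a replicate block, a sex term (by Ddx3y and Xist, 2 male controls and 1 male lung in each other group), removal of 6 rRNA and 7SL rows, and each library left out.

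The members and lists were chosen with earlier results of these data known. Values in each library are given for Col1a1, Col1a2, Col3a1, Col4a1, Col6a2 and Col2a1, and in each comparison for the 4 members with the highest and the 4 with the lowest fold change, the 4 of smallest p and any called. Of each pathway list, the 2 genes of smallest p over the comparisons are named. Other named genes (among them Col26a1, Dcn and the cell type markers) were chosen after their values were seen. One gene of the pathway lists is not reported here.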

Additional observations from a re-analysis of the deposited data

How the results depend on the processing

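Within a comparison, genes whose unadjusted p was below 0.05 kept their direction in every setting except Col17a1, which reversed without hypoplastic libraries 1 and 2 in both hypoplastic comparisons. Genes above that level did reverse. The cause of the changes below was not tested, beyond the fewer samples where libraries were left out. The fit without hypoplastic libraries 1 and 2 was added after the data were seen. It left hypoplastic library 3 alone in its group, so only its fold changes are given. In hypoplastic against control lungs edgeR called 1 gene of all tested, DESeq2 202 and the fit of the 6 libraries compared 4. Leaving out 1 library gave 0 to 45 genes, the highest without hypoplastic library 3, as in the next comparison. DESeq2 called 3 collagen genes against 0, and leaving out 1 library 0 to 1. Of the 9 with an unadjusted p under 0.05, voom left 5 and a sex term 5. Col18a1 turned to 0.0129 in voom and 0.14 without hypoplastic libraries 1 and 2. With 1 library left out it ran from -0.26 to 0.19, and Col4a1 from -0.0717 to 0.31. In treated against hypoplastic lungs the calls were 0, with DESeq2 17, and 0 to 44 with 1 library left out. For the collagen genes they were 0, with DESeq2 1, and 0 to 1. At an unadjusted p under 0.05, 6 genes became 3 in voom and 3 to 9 with 1 library left out (3 without treated library 1 or 2, 9 without hypoplastic library 3). Without hypoplastic libraries 1 and 2 Col17a1 was at 0.20 and Col18a1 at -0.10. With 1 left out Col2a1 ran from -0.66 to 0.00873, Col9a1 from -2.32 to 0.24, Col18a1 from -0.10 to 0.23 and Col4a1 from -0.0441 to 0.17. In treated against control lungs DESeq2 called 14 genes against 0, and leaving out 1 library gave 0 to 1, with 1 to 3 collagen genes at an unadjusted p under 0.05 against 2. Col1a2 turned to 0.0871 in voom and Col1a1 to -0.00102 with a sex term. With 1 left out Col1a1 ran from -0.22 to 0.56, Col1a2 from -0.31 to 0.32, Col3a1 from -0.33 to 0.57, Col4a1 from -0.0135 to 0.37, Col6a2 from -0.31 to 0.51 and Col14a1 from -0.51 to 0.0215. The median of the 27 genes ran from 0.24 to 0.90, -0.65 to -0.17 and -0.12 to 0.25 in the 3 comparisons with 1 library left out. With CPM of the library total the Col2a1 and Col9a1 pair had r = 0.769 (exact permutation, adjusted p = 0.0503). The other normalizations and filters changed no call of a collagen gene.

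The labels do not state whether equal library numbers mark a shared litter or batch. Deviations of same-numbered libraries of different groups correlated at -0.39 to 0.34, with 3 of 9 above 0.1. Those of other-numbered libraries correlated at -0.564 to 0.533. With 3 libraries per group these values cannot show whether the numbers pair lungs. A replicate block gave 2 called genes in hypoplastic against control lungs and 0 in the other comparisons, called no collagen gene, and put Col18a1 at 0.00464 in the first.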
